A study of Mus musculus with 6 samples.

Results

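The NF-κB family was followed through 10 genes, which were chosen with earlier results of these data known. They are the 5 subunit genes Rela, Rel, Relb, Nfkb1 and Nfkb2, the 4 IκB genes Nfkbia, Nfkbib, Nfkbie and Nfkbid, and Tnfaip3. These are 10 of the 23282 genes listed in each library, and all 10 were among the 11279 genes with a mean log2 value of at least 1 that entered the test between genotypes. RNA was sequenced from 6 samples of CD4 T cells of C57BL/6 mice, taken from spleen and lymph nodes and isolated with magnetic beads, with 3 samples per genotype. WT samples came from Prkaa1fl/fl mice without Cre (CD4Cre-neg). AMPK KO samples came from mice that carry the same floxed alleles and CD4Cre, so both groups share the floxed gene. The methods describe mice as females aged 6 to 8 weeks unless stated otherwise. The cells were rested for 1 h and then stimulated with 2 µg/mL anti-CD3 and 2 µg/mL anti-CD28, for 24 h by the labels and for 6 h by the methods. Prkaa1 encodes the α1 catalytic subunit of AMPK, an energy-sensing kinase. CD4Cre is active in thymocytes, so cells that later become CD8 T cells carry the deletion too. The samples are described as biologically independent, without saying whether each came from a separate mouse, and the p values measure the spread between these samples.

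NF-κB is a family of dimeric transcription factors that carries the signal of the T cell receptor and of CD28 to the nucleus. In resting cells the dimers are held in the cytoplasm by IκB proteins, and the IκB kinase marks these proteins for degradation when the cell is stimulated. Several of the inhibitors are themselves targets of NF-κB, so that the response switches itself down. The libraries count RNA only, so nuclear entry, phosphorylation and the processing of the p105 and p100 precursors were not measured.

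Rel fell by 44.8% and Nfkbid fell by 40.0% in AMPK KO cells on the linear scale, and the 8 other genes did not pass the test. Rel encodes c-Rel, the subunit most closely tied to activated lymphocytes. Nfkbid encodes IκBNS, a nuclear IκB protein that modulates part of the NF-κB response. Nfkbia, the gene of the main cytoplasmic inhibitor IκBα, was higher in each AMPK KO sample than in each WT sample, at an adjusted p of 0.127 by limma. Of the 10 genes, 2 passed an adjusted p of 0.05 by limma, which is 20% of them, beside 5.65% of all genes tested. Both were lower in AMPK KO (3.1% of all genes), and 0 were higher (2.54% of all genes). Without adjustment, limma gave a p under 0.05 for 4 of the 10 (21.3% of all genes), of which 2 were higher and 2 lower, and limma voom on the reads also called 0 higher. Among the 6143 genes with a mean log2 value of at least 4, where all 10 lie, 8.14% passed the adjusted threshold. As the 10 genes were chosen with earlier results of these data known, these shares describe them and do not test the family. The median log2 fold change of the 10 genes was 0.20, and that of all genes tested was 0.02.

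Sequences upstream of annotated starts of Rel, Nfkbid and Nfkbia are shown because they hold matches to the κB site, the DNA motif that NF-κB dimers bind. Promoter windows of RefSeq on GRCm38.p6, from 250 bases before to 50 after each start, were matched by symbol for 8 of the 10 genes, Relb and Nfkb1 being the others. The 10-letter κB consensus was spelled GGGRNYYYCC, with R for A or G, Y for C or T and N for any base. Searched on both strands, it was in 7 of the 13 windows of these genes, and 5 of the 8 genes had it. Of these windows, 2 of Nfkb2 overlap and hold the same match (GGGACTTTCC). The consensus was in 5.81% of all 32851 windows (6.55% of genes). The shorter form TTTCC, which can lie within a consensus match, was in 10 of the 13 windows and in 61.3% of all windows. The G+C content of the 13 windows was 47.0% to 75.0%, beside a median of 52.7% over all windows. The stretches below lie outside annotated exons, are written 5′ to 3′ on the strand of the gene, and carry the consensus match in capitals.
Rel: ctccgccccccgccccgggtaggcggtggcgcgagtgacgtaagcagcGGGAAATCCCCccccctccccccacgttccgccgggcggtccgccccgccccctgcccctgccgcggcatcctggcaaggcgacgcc
Nfkbid: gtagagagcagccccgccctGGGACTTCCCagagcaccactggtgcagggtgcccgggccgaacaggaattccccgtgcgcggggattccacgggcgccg
Nfkbia: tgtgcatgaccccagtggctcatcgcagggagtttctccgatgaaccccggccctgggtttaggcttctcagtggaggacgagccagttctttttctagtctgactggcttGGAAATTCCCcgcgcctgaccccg

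The Rel stretch is chr11:23770975-23771109 on the minus strand, and its capitals hold 2 overlapping matches on the other strand, the first of which begins 92 bases before the start of the gene. The Nfkbid stretch is chr7:30422160-30422259 on the plus strand, inside the gene but in no exon, and its match begins 226 bases before an alternative start. Only 1 of the 3 Nfkbid windows held a match, and the window at the start of the gene held none. The Nfkbia stretch is chr12:55492653-55492787 on the minus strand, with the match 29 bases before the start. Nfkb2 and Tnfaip3 also held the consensus, as GGGAATTCCC, GGGGCTTTCC and GGGACTTTCC in Nfkb2 and as GGAAATCCCC in Tnfaip3. The windows of Rela, Nfkbib and Nfkbie held no match to the consensus as spelled above, which says only that these letters are not in those windows. A match is a description of the sequence, and binding was not measured.

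Each WT library held between 9574762 and 10168342 reads, and each AMPK KO library between 10515192 and 11185188. Rn45s, the ribosomal RNA precursor, accounted for 20.7% to 24.9% of each WT library and for 8.48% to 10.8% of each AMPK KO library, and its part in the results was not tested beyond rescaling. Prkaa1 itself was at log2 values of 4.64, 5.24 and 4.86 in WT and 4.08, 4.72 and 4.67 in AMPK KO, which overlap (log2 fold change −0.43, SE 0.25, limma adjusted p = 0.357). The 3′ reads may lie outside the deleted part, so this level does not check the labels. The genotypes also differed in Xist, the RNA that coats the inactive X chromosome of females, with means of 1.66 in WT and 7.79 in AMPK KO, and in the Y-linked Ddx3y, with means of 8.48 and 7.13, and both genes passed the test by limma (Xist adjusted p = 8.48e-09, Ddx3y adjusted p = 8.63e-05). The WT libraries thus held Ddx3y with little Xist and the AMPK KO libraries held both, so neither group matches the females described in the methods. Sex and genotype cannot be told apart in the differences given here.

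Markers of other cells moved with genotype. The summed level of 10 T cell markers was 2743 to 3041 in WT, in normalized CPM taken back from the log2 scale, and 2057 to 2572 in AMPK KO, with 9 of the 10 means lower and 3 genes past the test (Cd3e, Cd3g and Cd28). The 12 macrophage and monocyte markers summed to 393 to 454 CPM in WT and 721 to 1382 in AMPK KO, with all 12 means higher and 7 past the test. Plasma cell markers summed to 82.8 to 84.1 in WT and 364 to 441 in AMPK KO, mostly Jchain (log2 levels of 5.84 to 6.01 and 8.36 to 8.62), which was the 1 gene of that list past the test. B cell markers summed to 295 to 325 and 291 to 350. Neutrophil markers summed to 710 to 782 in WT and 483 to 718 in AMPK KO, and regulatory T cell markers to 102 to 151 and 81.1 to 106, with overlap and no call. The CD8 T cell markers Cd8a and Cd8b1 summed to 231 to 305 in WT and 321 to 376 in AMPK KO, without overlap. NK cell markers summed to 65.8 to 91.3 in WT and 94.9 to 116 in AMPK KO, and dendritic cell markers to 36.1 to 39.9 and 47.9 to 66.0, also without overlap. None of the CD8, NK or dendritic cell markers tested passed the adjusted threshold by limma, and Ncr1 was too low to be tested. Ly6g of the neutrophil list is not among the genes listed in the libraries, and no other marker was at 0 in every sample. Cd4, which defines the cells, was at log2 levels of 6.14 to 6.83, and Cd8b1 was above it in every sample, at 7.17 to 7.98. In bulk RNA, fewer cells of a type and less RNA per cell cannot be told apart.

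Rel was lower in every AMPK KO sample. Its log2 level was 7.08, 6.61 and 6.99 in WT and 6.14, 6.03 and 5.93 in AMPK KO. The groups did not overlap, with 0.47 between the lowest WT and the highest AMPK KO sample, and the values rest on 691 to 1235 reads per library. The mean was 6.89 ± 0.25 (SD, n = 3) in WT and 6.04 ± 0.11 in AMPK KO. The log2 fold change was −0.86 (SE 0.17, 95% interval −1.22 to −0.50, limma adjusted p = 0.00951), and the exact two-sided permutation test gave p = 0.1, the smallest that 3 against 3 samples allow. Of all genes tested, 9.98% had an absolute log2 difference at least as large. Without WT 1 or WT 3 the limma adjusted p was 0.0854 and 0.0792, with log2 fold changes of −0.77 and −0.81. Over the 17 alternatives to the test it ranged from 0.000371 to 0.101, the latter with a spread not fitted to the mean. Rel lies at chr11:23736847-23770970 on the minus strand (GRCm38, GENCODE M21) and overlaps no other annotated gene.

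Rela encodes p65, the subunit that carries most of the transcription activation by the family in many cell types. Its log2 level was 7.99, 7.34 and 7.65 in WT and 7.56, 7.88 and 7.58 in AMPK KO. The groups overlapped, and the log2 fold change was 0.02 (SE 0.17, 95% interval −0.35 to 0.38, limma adjusted p = 0.973). That interval and the interval of Rel do not overlap. Rela is at chr19:5637483-5648130.

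Relb encodes the partner of p52 in the noncanonical arm. Its log2 level was 6.87, 6.43 and 6.53 in WT and 6.95, 6.75 and 7.50 in AMPK KO. AMPK KO 3 stood above the others and AMPK KO 2 fell within the WT range (log2 fold change 0.46, SE 0.20, 95% interval 0.04 to 0.88, limma adjusted p = 0.194). Without AMPK KO 2 the log2 fold change was 0.62 with a limma adjusted p of 0.0344, and without AMPK KO 3 it was 0.24 with a limma adjusted p of 0.555, the lowest and the highest p of the 17 alternatives. Relb is at chr7:19606217-19629438.

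Nfkb1 and Nfkb2 encode the precursors p105 and p100, which give the DNA-binding subunits p50 and p52 and also act as inhibitors through their own IκB-like ends. Nfkb1 was the lowest of the 10 genes, at log2 levels of 4.42, 4.85 and 5.01 in WT and 5.53, 4.27 and 5.78 in AMPK KO. AMPK KO 1 and 3 lay above all WT samples and AMPK KO 2 below all of them. The Nfkb1 log2 fold change was 0.43 (SE 0.33, 95% interval −0.26 to 1.13, limma adjusted p = 0.476), on 188 to 641 reads, and 0.89 without AMPK KO 2 (limma adjusted p = 0.0176, with 0.0176 to 0.871 over the 17 alternatives) but 0.14 without AMPK KO 3. Nfkb2 was at 7.54, 7.51 and 8.01 in WT and 7.87, 8.04 and 7.65 in AMPK KO, overlapping throughout (log2 fold change 0.17, SE 0.17, 95% interval −0.19 to 0.52, limma adjusted p = 0.610). Nfkb1 is at chr3:135584655-135691547, where Gm43430, not listed in the libraries, overlaps it on the same strand by 3897 bases. Nfkb2 is at chr19:46304320-46312385, where AC114539.1, also not listed, overlaps it on the opposite strand by 1292 bases. The 3′ end of Nfkb2 overlaps the opposite gene Psd by 299 bases. The counting is not stated to use strand, so reads of this pair may be mixed (Psd log2 fold change −0.05).

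**Figure D1:**
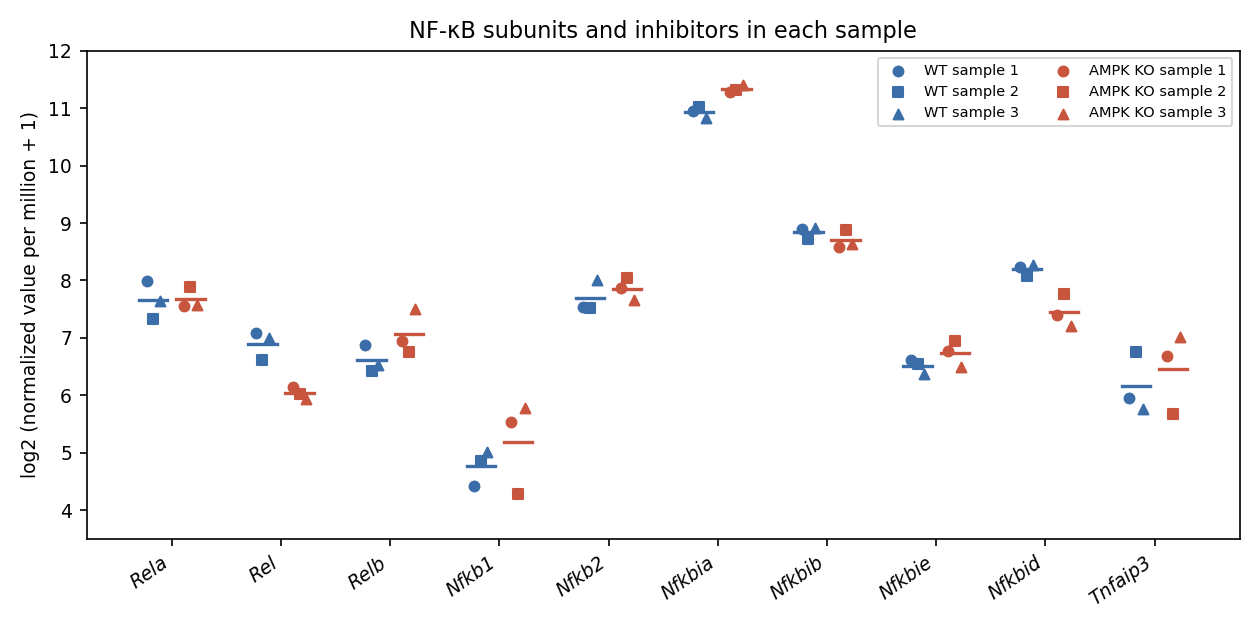
Log2 level (normalized CPM plus 1) of the 10 genes in each sample, WT in blue and AMPK KO in orange, with symbols for the sample number and a line for the mean. Rel and Nfkbid lie lower in all 3 AMPK KO samples and Nfkbia higher, while Tnfaip3 spreads widely within both genotypes and Nfkb1 within AMPK KO.

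The share of Rel among the subunit transcripts was lower in AMPK KO. On the linear scale, the 5 subunit genes summed to 655 ± 89.4 CPM in WT and 676 ± 16.6 in AMPK KO (SD, n = 3, exact permutation p = 1). Rel made up 18.9%, 17.5% and 17.9% of this sum in WT and 10.6%, 9.37% and 8.79% in AMPK KO. The groups did not overlap (18.1% ± 0.716 and 9.59% ± 0.933, exact permutation p = 0.1). The share of Relb was 14.9% ± 1.79 in WT and 20.2% ± 5.55 in AMPK KO, which overlapped (exact permutation p = 0.2). As these libraries count 1 read per transcript end, levels of different genes were compared without division by length. Shares of one sum are tied to each other, so the fall of one raises the others.

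**Figure D2:**
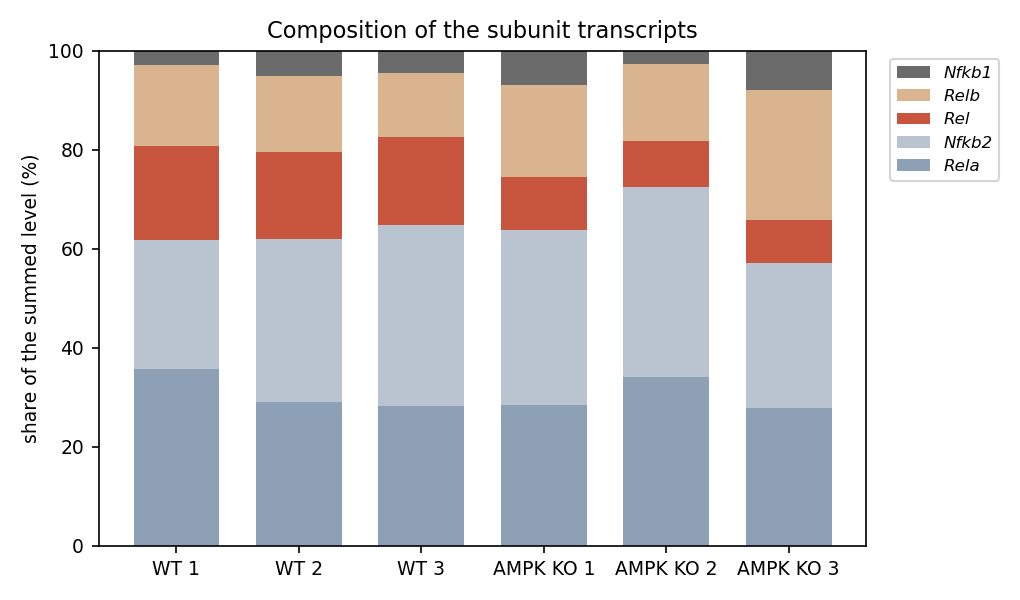
Share (%) of each of the 5 subunit genes in their summed linear level, stacked for each sample. The Rel band is 17.5% to 18.9% in WT and 8.79% to 10.6% in AMPK KO.

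Among the inhibitors, Nfkbid fell. Its log2 level was 8.24, 8.07 and 8.27 in WT and 7.41, 7.76 and 7.21 in AMPK KO, from 1744 to 2779 reads. Every AMPK KO sample lay below every WT sample, by at least 0.31, and AMPK KO 2 came nearest to WT. The log2 fold change was −0.74 (SE 0.16, 95% interval −1.07 to −0.40, limma adjusted p = 0.0150, exact permutation p = 0.1). Without WT 1, WT 3 or AMPK KO 1 the limma adjusted p was 0.103, 0.106 and 0.0881, with log2 fold changes of −0.71, −0.70 and −0.71. With no filter on low genes it was 0.0514, and over the 17 alternatives it ranged from 0.000473 to 0.135, the latter with a spread not fitted to the mean. Nfkbid is at chr7:30421732-30428746 on the plus strand and overlaps no annotated gene.

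Nfkbia was the most abundant of the 10 genes in both genotypes and the steadiest within them. Its log2 level was 10.96, 11.03 and 10.83 in WT and 11.28, 11.32 and 11.41 in AMPK KO. The groups did not overlap, with 0.25 between them, and the within-group SD of 0.084 was the smallest of the 10. The log2 fold change was 0.40 (SE 0.15, 95% interval 0.09 to 0.71), which limma did not call (unadjusted p = 0.0157, adjusted p = 0.127). With quantile normalization of the libraries the fold change was 0.12, and without AMPK KO 2 the limma adjusted p was 0.0230, in a range of 0.0230 to 0.644 over the 17 alternatives. In all, 3 of the 10 genes had groups that did not overlap (Rel, Nfkbid and Nfkbia), beside 25.6% of all genes tested. Nfkbia is at chr12:55489410-55492647.

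Nfkbib and Nfkbie encode IκBβ and IκBε, the other cytoplasmic inhibitors. Nfkbib was at log2 levels of 8.89, 8.73 and 8.91 in WT and 8.57, 8.87 and 8.64 in AMPK KO (log2 fold change −0.15, SE 0.14, 95% interval −0.44 to 0.15, limma adjusted p = 0.578). Nfkbie was at 6.61, 6.55 and 6.37 in WT and 6.78, 6.95 and 6.50 in AMPK KO (log2 fold change 0.23, SE 0.17, 95% interval −0.12 to 0.58, limma adjusted p = 0.454). Both overlapped between genotypes. Leaving out each library in turn gave log2 fold changes of −0.24 to −0.09 for Nfkbib, 0.13 to 0.35 for Nfkbie and, for Nfkb2 above, 0.07 to 0.33. Nfkbib is at chr7:28758251-28767512, where it overlaps the opposite genes Sirt2 by 778 bases and Ccer2 by 718, so its reads may be mixed with theirs. Nfkbie is at chr17:45555703-45563169.

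Tnfaip3 encodes A20, an enzyme that edits ubiquitin chains and ends signalling to NF-κB. Its log2 level was 5.96, 6.75 and 5.77 in WT and 6.69, 5.67 and 7.01 in AMPK KO. WT 2, AMPK KO 1 and AMPK KO 3 were high and the other 3 samples low, across the genotypes. The log2 fold change was 0.30 (SE 0.30, 95% interval −0.35 to 0.94, limma adjusted p = 0.618), and the gene had the largest within-group SD of the 10, at 0.61. The log2 fold change was 0.02 without AMPK KO 3 and 0.69 without AMPK KO 2 (limma adjusted p = 0.980 and 0.0580), the extremes of the 17 alternatives for that p. Tnfaip3 is at chr10:19000910-19015657.

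**Figure D3:**
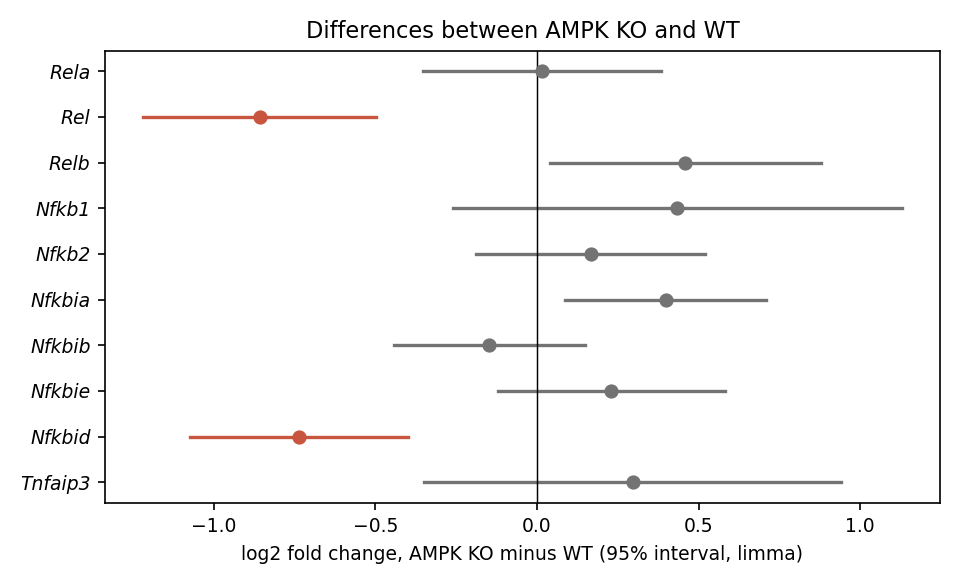
Log2 fold change between AMPK KO and WT with its 95% interval (limma) for the 10 genes, in orange where the adjusted p is under 0.05. Only the intervals of Rel and Nfkbid are orange, both below 0, while those of Relb and Nfkbia lie above 0 without passing the adjusted threshold.

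Within the summed inhibitors, the share of Nfkbia was higher and that of Nfkbid lower in AMPK KO. The 4 IκB genes summed to 2805 ± 100 CPM in WT and 3284 ± 127 in AMPK KO (SD, n = 3, exact permutation p = 0.1). Nfkbia was 69.9% ± 2.54 of this sum in WT and 78.7% ± 2.51 in AMPK KO, and Nfkbid 10.4% ± 1.05 and 5.39% ± 1.01, neither with overlap (exact permutation p = 0.1 for each). The share of Nfkbib was also lower without overlap, at 16.4% ± 1.57 and 12.6% ± 1.10 (exact permutation p = 0.1). Shares of one sum are tied to each other, and Nfkbib itself was at a log2 fold change of −0.15 (limma adjusted p = 0.578). Nfkbia, which is most of the sum, was not called (limma adjusted p = 0.127). With quantile normalization its log2 fold change was 0.12. The share of Nfkbie was 3.22% ± 0.180 and 3.25% ± 0.515, which overlapped (exact permutation p = 0.9).

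In order of mean linear level in WT the genes ran from Nfkbia at 1963 CPM over Nfkbib at 460, Nfkbid at 292, Nfkb2 at 208, Rela at 204, Rel at 119, Relb at 97.4, Nfkbie at 90.4 and Tnfaip3 at 73.7 to Nfkb1 at 26.5. Neighbours whose samples overlapped were Nfkb2 and Rela, Rel and Relb, Relb and Nfkbie, and Nfkbie and Tnfaip3. In AMPK KO the order ran Nfkbia 2585, Nfkbib 416, Nfkb2 232, Rela 204, Nfkbid 177, Relb 136, Nfkbie 107, Tnfaip3 93.2, Rel 64.7 and Nfkb1 39.2 CPM. There the samples of neighbours were apart only for Nfkbia and Nfkbib, Nfkbib and Nfkb2, and Rel and Nfkb1.

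The falls of Rel and Nfkbid were also read against the T cell markers, which were themselves lower in AMPK KO by 0.37 on the log2 scale of their sum. Rel relative to this sum was −4.50, −4.82 and −4.48 in WT and −4.89, −5.32 and −5.10 in AMPK KO, as log2 ratios. Nfkbid relative to it was −3.33, −3.36 and −3.20 in WT and −3.61, −3.58 and −3.81 in AMPK KO. Both stayed lower without overlap, by −0.50 and −0.37 on the log2 scale (exact permutation p = 0.1 for each). Without this scaling, 3 single T cell markers fell by amounts near those of these genes, with Cd3g at −0.93 (limma adjusted p = 0.00579), Cd3e at −0.66 (limma adjusted p = 0.0239) and Cd28 at −0.56 (limma adjusted p = 0.0470), beside −0.86 for Rel and −0.74 for Nfkbid. On the same scale 6 genes were higher in AMPK KO without overlap, Relb by 0.83, Nfkbia by 0.77, Nfkbie by 0.60, Nfkb2 by 0.53, Rela by 0.38 and Nfkbib by 0.22 (exact permutation p = 0.1 for each). Nfkb1 and Tnfaip3 had higher means with overlap. This scaling moved every gene up alike, so that 28.1% of all genes tested were higher without overlap and 3.4% lower, and Nfkbib, whose mean was lower before it, changed sign. The higher macrophage markers in AMPK KO stand beside these values, and their part in the results was not tested.

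**Figure D4:**
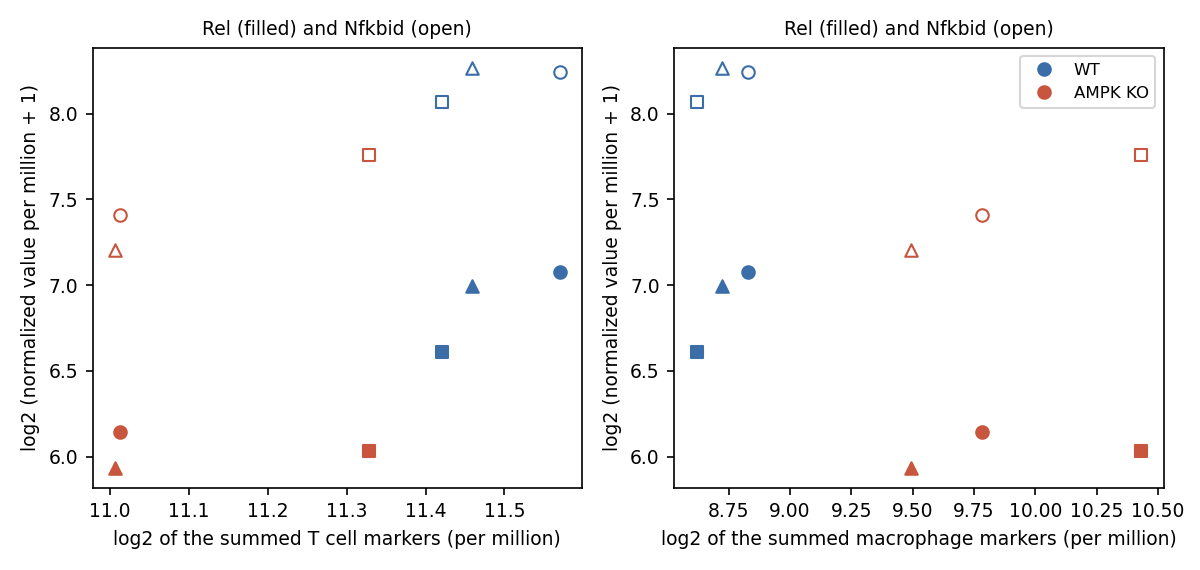
Log2 level of Rel (filled) and Nfkbid (open) against the log2 of the summed T cell markers (left) and of the summed macrophage and monocyte markers (right), WT in blue and AMPK KO in orange, with circles, squares and triangles for samples 1, 2 and 3. The AMPK KO samples lie lower for both genes, at lower T cell sums and at higher macrophage sums.

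A division of the libraries that did not follow genotype set WT 1, WT 3 and AMPK KO 2 against WT 2, AMPK KO 1 and AMPK KO 3, and took 42.5% of the variance within genotypes. Within the first set the log2 difference between genotypes was −1.01 for Rel, −0.50 for Nfkbid and −0.44 for Nfkb1, and within the second it was −0.57, −0.76 and 0.80. Each set has 1 library in one genotype. As the genotypes do not overlap for Rel and Nfkbid, the sign was fixed for both and only the sizes are described, while Nfkb1 changed sign. Tnfaip3 lay below its group mean in all samples of the first set and above it in all of the second, and Nfkbib and Nfkbid the other way round. Over the 6 samples, the deviations from the group means had a Pearson r of −0.955 between Nfkbid and Tnfaip3, of 0.846 between Nfkbib and Nfkbid and of 0.766 between Nfkb1 and Tnfaip3, as a description of samples that share depth and composition.

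Among 6142 other genes with a mean log2 value of at least 4, the 5 whose values were most like those of Rel were Cwc25, Rprd1b, Ap2a2, Prdm2 and Chd3, with Pearson r of 0.994 to 0.998. By deviations from the group means they were Nfkbiz, Jarid2, Jtb, Nudcd3 and Cwc25, with r of 0.989 to 0.995. These are descriptions over 6 samples.

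Of 52 other genes of the pathway on lists by role, 50 were tested, and 8 of these (16%, beside 5.65% of all genes) passed the test, each of them higher in AMPK KO (2.54% of all genes). All 8 were induced targets of NF-κB, the list of genes that it switches on in activated lymphocytes, of which 18 were tested (8 called, or 44.4%, 12 means higher and 6 lower, median log2 fold change 0.57). The median of all 50 was −0.03. The lists too were chosen with earlier results of these data known, so their shares are descriptions. 0 of the 50 passed in the lower direction by limma, 5 (10%) had an unadjusted p under 0.05 and a lower mean, near the 10.7% of all genes, 0 passed by limma voom, and 3 passed with a term for the division of the libraries. Il2 and Csf2, named after their values were seen, were not tested, at 3 to 8 and at 0 reads per library. Of the 6 targets with lower means, those furthest from 0, also named after their values were seen, were Myc at a log2 fold change of −0.88 (limma unadjusted p = 0.0279, adjusted p = 0.175), Ltb at −0.54 (limma adjusted p = 0.302) and Lta at −0.51 (limma adjusted p = 0.442). Myc and Lta did not overlap between genotypes. By limma, 12 of the 18 tested targets had an unadjusted p under 0.05 (66.7%, beside 21.3% of all genes). Of these, 11 were higher and 1 lower. The higher ones without a call, also named after their values were seen, were Tnf at 0.60, Traf1 at 0.54 and Gadd45b at 0.42 (limma adjusted p = 0.0869, 0.0916 and 0.126).

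Ccl3 and Ccl4, chemokines that T cells, NK cells and macrophages secrete, rose most. Ccl3 was at log2 levels of 3.96, 4.21 and 3.76 in WT and 5.25, 6.10 and 5.08 in AMPK KO (log2 fold change 1.50, SE 0.27, limma adjusted p = 0.00633). Ccl4 was at 4.15, 4.60 and 4.44 in WT and 5.63, 5.85 and 5.58 in AMPK KO (log2 fold change 1.29, SE 0.21, limma adjusted p = 0.00282). Every AMPK KO sample lay above every WT sample for both. Irf1, a transcription factor of the interferon response, was at 9.07, 9.16 and 9.06 in WT and 9.77, 10.04 and 9.91 in AMPK KO (log2 fold change 0.81, SE 0.13, limma adjusted p = 0.00336). Icam1, an adhesion molecule, rose by 0.95 (limma adjusted p = 0.0198). Cd83, a surface marker of activated lymphocytes and dendritic cells, rose by 0.68 (limma adjusted p = 0.0316) and Tnfrsf9, which encodes the costimulatory receptor 4-1BB, by 0.72 (limma adjusted p = 0.0245). The survival genes Bcl2a1b and Bcl2a1d rose by 0.74 and 0.72 (limma adjusted p = 0.0412 and 0.0371), and as near-identical copies they may share reads.

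The calls of these targets held to different degrees over the 17 alternatives. Ccl4 passed in 17, Irf1 in 15, Ccl3 in 14, Icam1, Cd83 and Tnfrsf9 in 11 each, and Bcl2a1b and Bcl2a1d in 9 each. Macrophages, NK cells and dendritic cells also express several of these genes, and the summed markers of all 3 given above were higher in AMPK KO without overlap. The methods state a high purity of CD4 T cells after the magnetic sort. Csf1r, the highest of the macrophage and monocyte markers in each sample, was at log2 levels of 7.21 to 9.01, above Cd4 in every sample. The part of such cells in the result was not tested.

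The arms that lead to NF-κB gave no call. In the CBM and TAK1 arm, which carries the T cell receptor signal to the IκB kinase, 7 of 9 means were lower, with a median of −0.36. The largest were Tab1 at −0.59 (limma adjusted p = 0.420), on only 19 to 36 reads per library, and Bcl10 at −0.55 (limma adjusted p = 0.160). Of the IκB kinase, Ikbkg was at 0.34 (limma adjusted p = 0.539) and Chuk at 0.16 (limma adjusted p = 0.802). In the noncanonical arm the kinase gene Map3k14 was at −0.40 (limma adjusted p = 0.227) and Birc3 at 0.37 (limma adjusted p = 0.559), with a median of −0.03 over 5 genes. The other nuclear IκB genes, Nfkbiz at −0.09 (limma adjusted p = 0.758) and Bcl3 at 0.17 (limma adjusted p = 0.669), did not pass. Of 13 ubiquitin and feedback genes the median was −0.09, with Otulin at −0.50 (limma adjusted p = 0.135) and Zc3h12a at 0.38 (limma adjusted p = 0.315). In these 5 lists, limma gave an unadjusted p under 0.05 for 4 of the 32 genes tested, or 12.5%, which is below the 21.3% of all genes. The 4 means were lower, a direction that 10.7% of all genes took at this p.

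**Figure D5:**
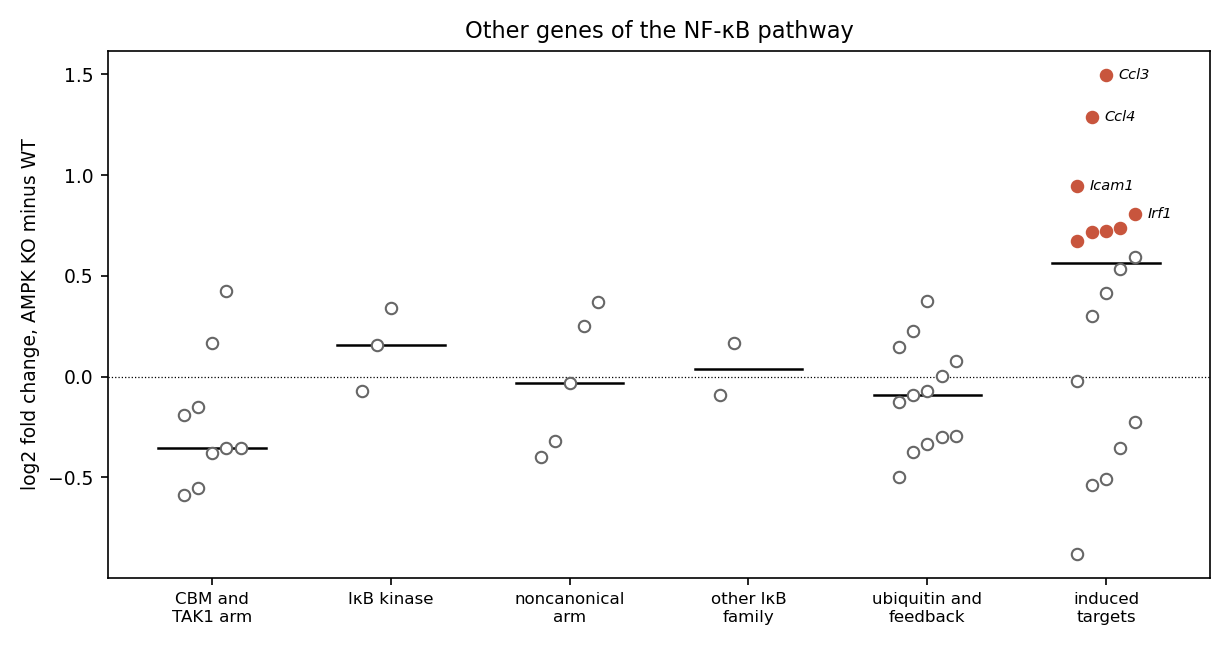
Log2 fold change between AMPK KO and WT of the 50 tested pathway genes by list, filled where the adjusted p (limma) is under 0.05, with a line at the median of each list. All 8 filled points are higher in AMPK KO and lie among the induced targets, led by Ccl3 and Ccl4.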

How the data were processed

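RNA of 3 WT and 3 AMPK KO samples was read as Lexogen QuantSeq 3′ libraries from 500 ng of total RNA. The authors deposited log2 values per gene, made by TMM and CPM normalization as log2 of the value plus 1. The submitters' processing notes name Bowtie2, bedtools and mm10. Strand use and annotation are not given in the sources used here. Up to 100 reads, 100% of values lay within 0.1 of a whole read, so reads and depths were recovered. Groups came from the labels. Genes with a mean log2 of at least 1 were fitted by genotype with lmFit and eBayes (trend) of limma 3.58.1 in R 4.3.3, two-sided, with Benjamini-Hochberg adjustment over all tested genes and a threshold of 0.05. Single values had exact two-sided permutation tests. Intervals are 95%. The fit was tested on simulated data.

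The members and lists were chosen with earlier results of these data known. Named were the 10 members, every pathway gene past the threshold, and otherwise the 2 largest changes per list. Likeness to Rel named 5 genes each way. The 17 alternatives were other scalings, filters, pseudocounts (0.5 and 2), a replicate block, other spread estimates, limma voom on recovered reads, a division term and leaving out each library. Positions are from GENCODE M21 and promoters from RefSeq. Python 3.11.15 with pandas 2.3.3 and matplotlib 3.10.9 was used for tables and plots.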

Additional observations from a re-analysis of the deposited data

How the results depend on the processing

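Of 475 values of single named genes under 17 alternatives, 414 kept their direction and side of the threshold, 49 lost it, 6 gained it and 6 reversed. Rela reversed to −0.0542 when scaled to reads outside Rn45s, to −0.15 without WT 2 and to −0.09 without AMPK KO 2 (−0.15 to 0.18 over the libraries left out), Tnfaip3 to −0.0473 with the division term, and Chuk to −0.05 with it and to −0.00183 without AMPK KO 3 (up to 0.38 without AMPK KO 2). The 2 members past the threshold became 1 without a filter (1 lower), 0 with eBayes without trend (0 lower) and 0 with the replicate block (0 lower), while the division term called 1 higher. Leaving out a library gave 0 to 5 members, 0 to 3 higher and 0 to 2 lower. Of all genes, 5.65% were called in the test as reported, 12.7% with the division term, 1.12% without WT 1 (0 members) and 11% without AMPK KO 2 (5 members). The 8 pathway genes, all higher, became 4 without a filter, 1 without trend and 2 with the replicate block, and 13 with the division term (3 lower). Leaving out a library gave 2 to 11, with 2 to 9 higher and 0 to 2 lower. Same-numbered samples correlated at −0.08, −0.32 and −0.16 in their deviations, which shows no likeness by number. Deviations from means of 3 samples are tied to each other, so this cannot settle whether the samples were paired. The block called 102 genes where 637 passed without it. The cause of these shifts was not tested. Nfkb1, at 188 to 641 reads, had the fewest reads of the members.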
